A study of Mus musculus with 18 samples.

Results

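Slc7a11, Cbs, Cth, Gclc, Gclm, Gss, Gsr, Chac1 and Ggct, 9 genes of cystine uptake and glutathione turnover, were followed in mouse embryonic stem cells deprived of 1 amino acid with or without the kinase GCN2. They were chosen by name and with earlier results of these data known. Their rows are those of the deposited count tables whose Ensembl identifier carries one of these symbols in GENCODE vM21. All 9 were found among 55471 gene identifiers, and all 9 were counted highly enough to be tested with edgeR, the main test, in every comparison.

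The cells were E14, an embryonic stem cell line, in 6 groups of 3 libraries. Gcn Arg and Gcn Leu were Eif2ak4-/- cells (GCN2 knock-out) starved for 3 h of arginine and of leucine, and Gcn Unstarved were Eif2ak4-/- cells with all amino acids. Wt Arg, Wt Leu and Wt Unstarved were wild-type cells under the same 3 conditions. All groups shared a SILAC medium with dialyzed serum, leukaemia inhibitory factor and β-mercaptoethanol, a reducing agent, and none was deprived of cystine or methionine as far as the labels say. Poly(A) RNA was sequenced, and each value below is a count per gene or a level made from it. The labels do not say whether the Gcn line is 1 clone, so the knock-out and the history of that line cannot be told apart. Nothing in them says that the replicates were separate cultures, so the p-values measure a spread between libraries that may be technical. In bulk libraries, a smaller share of cells carrying a transcript and less of it per cell cannot be told apart.

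Cells take up cystine, the oxidised dimer of cysteine, through an exchanger whose transport subunit, xCT, is encoded by Slc7a11, and they can also make cysteine from methionine through the transsulfuration enzymes encoded by Cbs and Cth. Cysteine limits the synthesis of glutathione, the main small thiol of the cell, which is built by glutamate-cysteine ligase (Gclc and Gclm) and glutathione synthetase (Gss), kept reduced by glutathione reductase (Gsr), and cleaved in the cytosol by Chac1. Ggct acts on γ-glutamyl amino acids and dipeptides of the wider γ-glutamyl cycle. GCN2 senses uncharged tRNA and, by phosphorylating eIF2α, favours translation of ATF4, a transcription factor known to bind genes of amino acid supply, Slc7a11 and Chac1 among them. NRF2, encoded by Nfe2l2, is the factor best known for driving Gclc, Gclm, Gsr and Slc7a11 in oxidative stress.

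The promoters of Slc7a11, Chac1 and Gclm are shown because starvation changed the first 2 genes differently in the 2 genotypes and lowered the last in both. Each is 300 bases of RefSeq sequence, build GRCm38.p6, with 250 bases before the annotated start and 50 after, on the gene's own strand: chr3:50443564-50443863 on the minus strand for Slc7a11, chr2:119350992-119351291 on the plus strand for Chac1 and chr3:122245307-122245606 on the plus strand for Gclm. Capitals mark a match, on either strand, to TGATGNAA, the core of the C/EBP-ATF composite site, or to TGACNNNGC, the core of the antioxidant response element.
Slc7a11: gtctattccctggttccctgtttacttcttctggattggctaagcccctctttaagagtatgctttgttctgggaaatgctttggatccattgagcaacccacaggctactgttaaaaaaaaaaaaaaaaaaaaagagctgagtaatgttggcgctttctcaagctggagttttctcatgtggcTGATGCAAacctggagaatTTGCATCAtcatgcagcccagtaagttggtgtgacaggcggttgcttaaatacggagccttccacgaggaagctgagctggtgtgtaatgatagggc
Chac1: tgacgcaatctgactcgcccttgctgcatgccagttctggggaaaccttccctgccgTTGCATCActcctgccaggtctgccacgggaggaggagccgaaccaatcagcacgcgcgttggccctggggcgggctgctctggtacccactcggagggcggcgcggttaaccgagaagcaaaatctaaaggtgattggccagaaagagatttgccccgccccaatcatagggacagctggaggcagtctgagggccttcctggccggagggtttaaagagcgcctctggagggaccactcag
Gclm: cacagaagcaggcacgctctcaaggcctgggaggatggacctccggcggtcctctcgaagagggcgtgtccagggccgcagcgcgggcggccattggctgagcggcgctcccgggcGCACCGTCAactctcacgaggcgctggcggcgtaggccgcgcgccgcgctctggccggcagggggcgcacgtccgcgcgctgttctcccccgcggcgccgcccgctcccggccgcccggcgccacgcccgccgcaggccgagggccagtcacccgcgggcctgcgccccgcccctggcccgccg

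The Slc7a11 window held TGATGNAA at 66 bases before the start and, on the other strand, at 47 bases before it. The Chac1 window held it at 193 bases before the start, on the other strand. Of 32851 mouse promoter windows of this length, 3.97% held at least 1 such match. The Gclm window held 1 match to TGACNNNGC, at 134 bases before the start, where 12.4% of all windows held one. The reference table gave windows for 6 of the 9 genes. Among the other 3 of these, the Ggct window held 2 matches to TGACNNNGC, and the Cbs and Gss windows held no match to either pattern. No match to TGACGTCA, the cyclic AMP response element, lay in any of the 6, against 1.79% of all windows. The matches describe letters in these windows and say nothing of binding.

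Library totals ran between 14777012 counts (Gcn Arg 3) and 38814785 counts (Gcn Leu 3), and levels are given as CPM, each library scaled to the same total, after TMM scaling over all 18 libraries. Eif2ak4 stood at 4.03 to 6.37 CPM in the Gcn libraries and at 27.0 to 33.4 CPM in the Wt libraries, with no overlap. All 8 embryonic stem cell markers reached 1 CPM in every group. Their summed level was 7430 to 7800 CPM in Gcn Arg, 8350 to 8930 CPM in Gcn Leu and 7560 to 8050 CPM in Gcn Unstarved. In Wt cells it was 6300 to 6970 CPM in Wt Arg, 6690 to 7420 CPM in Wt Leu and 6830 to 7690 CPM in Wt Unstarved. Gcn Leu thus lay above all other groups, and Gcn Arg above Wt Arg. The part of these markers in the results below was not tested. Within the knock-out, a principal component with 19.6% of the variance parted the libraries numbered 1 in all 3 groups from the rest, and results of the Gcn groups are therefore given without them wherever that ended a call. A gene is called when the Benjamini-Hochberg adjusted p of edgeR's quasi-likelihood test is under 0.05, each ± after a log2 fold change is its standard error, and each ± after a level is an SD over 3 libraries.

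Slc7a11 and Chac1 rose strongly in starved Wt cells, and neither rose in starved Gcn cells, where Chac1 fell with both starvations. Cth rose in starved Wt cells and was not called in starved Gcn cells, and the difference between genotypes passed for arginine alone. Gclc and Gclm, the 2 subunits of glutamate-cysteine ligase, fell in all 4 comparisons of starved with unstarved cells. Gss passed no test in any of the 9 comparisons.

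**Figure D1:**
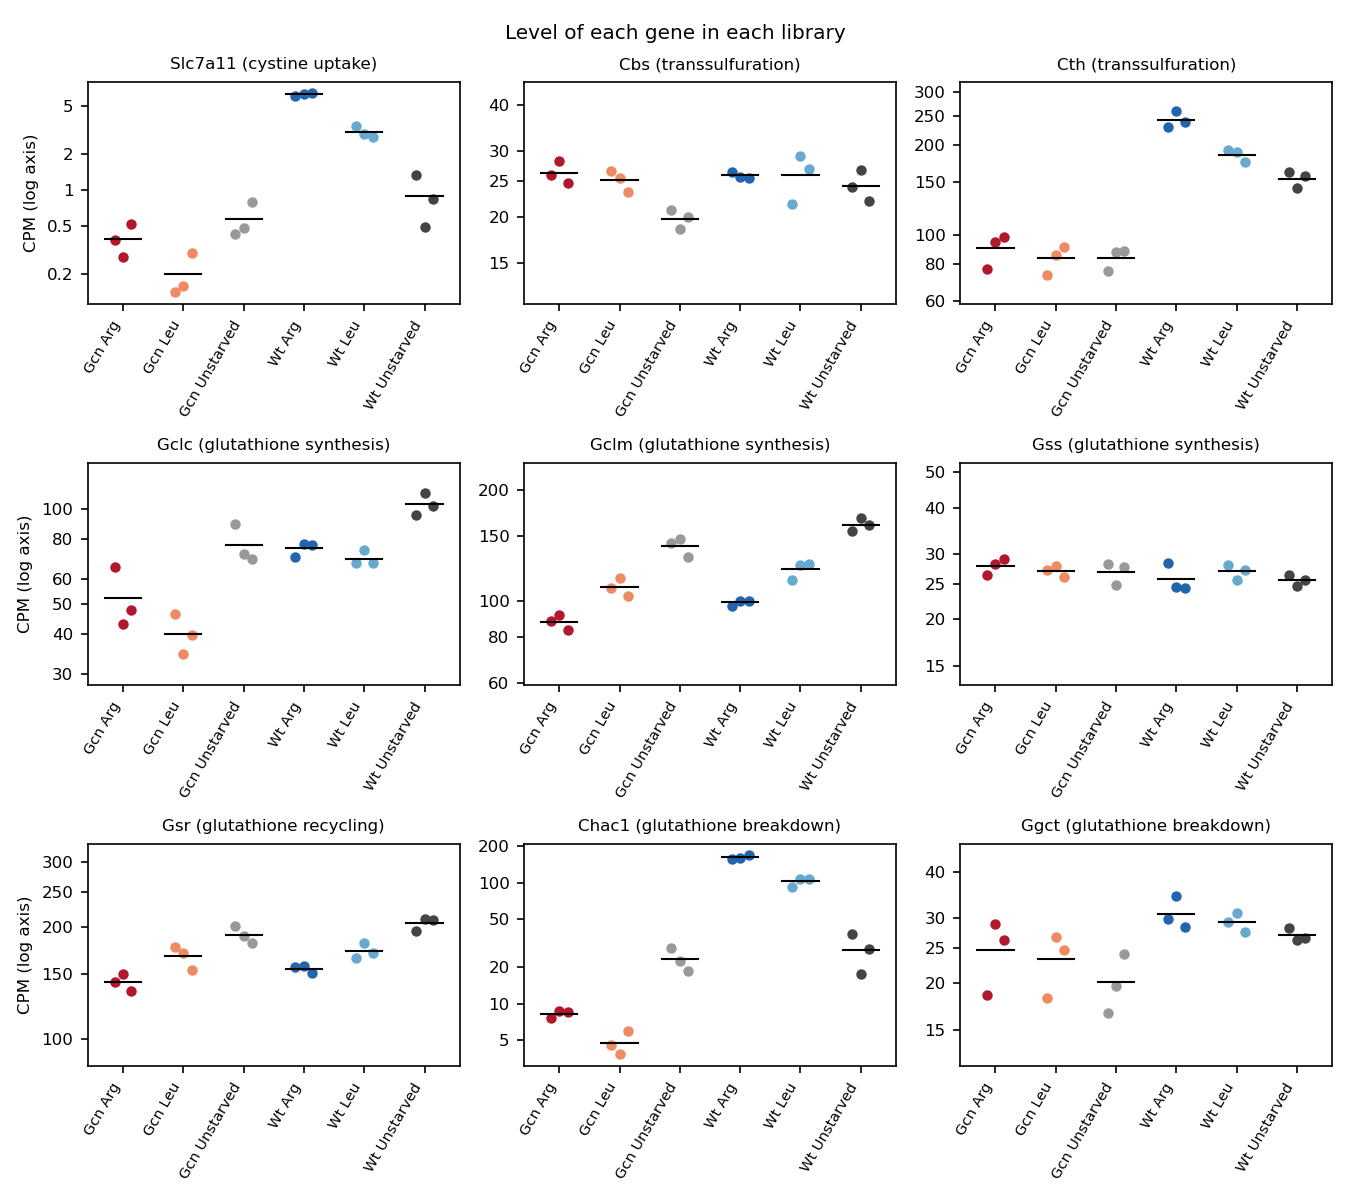
Level of each of the 9 genes in CPM (log axis, a range of its own in each panel) in every library, by group, with points for the 3 libraries and a bar for their mean. Slc7a11, Chac1 and Cth lie highest in Wt Arg, Gclc and Gclm lie highest in Wt Unstarved, and Gss lies between 24.3 and 29.1 CPM in all 18 libraries.

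Slc7a11 (ENSMUSG00000027737, chr3:49892526-50443614 on the minus strand of GRCm38) encodes the cystine transporter subunit xCT. It stood at 0.385, 0.279 and 0.518 CPM in Gcn Arg, at 0.142, 0.161 and 0.303 CPM in Gcn Leu, and at 0.435, 0.480 and 0.801 CPM in Gcn Unstarved. It stood at 6.07, 6.24 and 6.35 CPM in Wt Arg, at 3.42, 2.91 and 2.74 CPM in Wt Leu, and at 1.34, 0.495 and 0.838 CPM in Wt Unstarved. The starved Wt groups did not overlap each other or any other group, whereas the Gcn groups lay low and those next to each other in level overlapped. These levels rest on few reads, with 4 to 21 counts in a Gcn library and 12 to 204 in a Wt library. Within the Gcn cells, arginine starvation gave a log2 fold change of -0.59 ± 0.41 that was not called (adjusted p = 0.315).

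With leucine starvation of Gcn cells, where DESeq2 gave no adjusted p for this gene, Slc7a11 fell by 1.42 ± 0.41 on the log2 scale (adjusted p = 0.025). That call was lost without Gcn Leu 1 (-1.23, adjusted p = 0.0737), without Gcn Leu 2 (-1.29, adjusted p = 0.0818), without Gcn Unstarved 3 (-1.12, adjusted p = 0.124) and without the 3 Gcn libraries numbered 1 (-1.38, adjusted p = 0.0578), so it rests on single libraries of very few counts. In Wt cells, Slc7a11 rose 6.74-fold with arginine starvation (log2 2.75 ± 0.21, adjusted p = 4.91e-08). It rose 3.26-fold with leucine starvation (log2 1.71 ± 0.24, adjusted p = 4.92e-05). Both rises share the Wt Unstarved libraries, of which number 1 was the highest, and so do all arginine and leucine comparisons of 1 genotype below. The log2 change lay between 2.46 and 3.23 for arginine and between 1.42 and 2.19 for leucine over 12 alternative settings each, which include leaving out each library. Between starved Wt groups, it was lower in Wt Leu than in Wt Arg (log2 -1.05 ± 0.18, adjusted p = 0.00111).

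The change of Slc7a11 differed between genotypes in both starvations. The difference, the log2 change in Gcn cells minus that in Wt cells, was -3.36 ± 0.47 for arginine (adjusted p = 0.000162) and -3.14 ± 0.48 for leucine (adjusted p = 0.000816). It passed in each of the 18 alternative settings with an adjusted p, while DESeq2 gave none for this gene in either difference. In unstarved cells, Slc7a11 was not called between genotypes (Gcn against Wt, log2 -0.66 ± 0.32, adjusted p = 0.125). That comparison turned on single libraries, since it passed without Wt Unstarved 2 (-0.95, adjusted p = 0.0219) or without Gcn Unstarved 3 (-0.99, adjusted p = 0.049).

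Cbs (ENSMUSG00000024039, chr17:31608894-31637238, minus strand) encodes cystathionine β-synthase, which joins homocysteine from methionine to serine. It stood at 25.9, 28.2 and 24.6 CPM in Gcn Arg, 26.6, 25.5 and 23.3 CPM in Gcn Leu, and 20.8, 18.5 and 19.9 CPM in Gcn Unstarved. It stood at 26.4, 25.6 and 25.5 CPM in Wt Arg, 21.6, 29.1 and 26.9 CPM in Wt Leu, and 24.0, 26.7 and 22.1 CPM in Wt Unstarved. Gcn Unstarved was the lowest group and overlapped none of the others, and the remaining 5 groups lay within 21.6 to 29.1 CPM. Cbs was the only 1 of the 9 called higher in starved Gcn cells, by 0.42 ± 0.10 with arginine starvation (adjusted p = 0.00456) and by 0.36 ± 0.09 with leucine starvation (adjusted p = 0.0155) on the log2 scale. The leucine call was lost without Gcn Unstarved 2 (adjusted p = 0.0968), Gcn Leu 2 (adjusted p = 0.0588) or Gcn Unstarved 3 (adjusted p = 0.0542).

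In Wt cells Cbs was not called (log2 0.09 ± 0.10 with either starvation, adjusted p = 0.489 for arginine and 0.519 for leucine). The difference between the genotypes' changes did not pass either (0.33 ± 0.14, adjusted p = 0.252 for arginine, and 0.25 ± 0.14, adjusted p = 0.459 for leucine), so the change of Cbs is not shown to depend on GCN2. Between unstarved groups it was lower in Gcn cells (log2 -0.30 ± 0.10, adjusted p = 0.0269). This call was lost without Wt Unstarved 1 (adjusted p = 0.051), Wt Unstarved 2 (0.13), Gcn Unstarved 2 (0.103) or Gcn Unstarved 3 (0.0507).

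Cth (ENSMUSG00000028179, chr3:157894248-157925077, minus strand) encodes cystathionine γ-lyase, which releases cysteine in the last step of transsulfuration. It stood at 77.2, 94.9 and 98.7 CPM in Gcn Arg, 73.6, 85.9 and 90.9 CPM in Gcn Leu, and 76.0, 87.4 and 88.6 CPM in Gcn Unstarved. It stood at 229, 260 and 239 CPM in Wt Arg, 192, 189 and 175 CPM in Wt Leu, and 162, 143 and 157 CPM in Wt Unstarved. Every Wt library lay above every Gcn library, the 3 Wt groups did not overlap, and the 3 Gcn groups did, with number 1 the lowest of each.

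In Gcn cells Cth was not called with arginine starvation (log2 0.11 ± 0.12, adjusted p = 0.534) or leucine starvation (0.00 ± 0.12, adjusted p = 0.999). In Wt cells it rose 1.58-fold with arginine starvation (log2 0.66 ± 0.07, adjusted p = 1.05e-06) and less with leucine starvation (log2 0.27 ± 0.07, adjusted p = 0.00626). It was lower in Wt Leu than in Wt Arg (log2 -0.39 ± 0.07, adjusted p = 0.00129). Between unstarved cells Cth had the largest difference of the 9, at 84.0 ± 6.9 CPM in Gcn Unstarved and 154 ± 9.9 CPM in Wt Unstarved (log2 -0.87 ± 0.10, adjusted p = 3.57e-07).

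The change of Cth with arginine starvation differed between genotypes by -0.56 ± 0.13 on the log2 scale (adjusted p = 0.0274), and that call is fragile. It was lost without any 1 of Wt Arg 2 (adjusted p = 0.103), Wt Arg 3 (0.0542), Wt Unstarved 2 (0.0582), Wt Unstarved 3 (0.0559), Gcn Arg 1 (0.0549), Gcn Unstarved 2 (0.088) and Gcn Unstarved 3 (0.07), and with library size as the only scaling (log2 -0.46, adjusted p = 0.0641). For leucine the difference was -0.28 ± 0.13 and was not called (adjusted p = 0.368), but it was with the replicate block (-0.28, adjusted p = 0.0241).

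Gclc (ENSMUSG00000032350, chr9:77754535-77794485, plus strand) encodes the catalytic subunit of glutamate-cysteine ligase, the rate-limiting enzyme of glutathione synthesis. It stood at 65.4, 43.2 and 47.9 CPM in Gcn Arg, 46.4, 34.6 and 39.7 CPM in Gcn Leu, and 89.5, 72.0 and 69.3 CPM in Gcn Unstarved. It stood at 70.4, 77.5 and 76.8 CPM in Wt Arg, 67.5, 73.8 and 67.2 CPM in Wt Leu, and 95.6, 112 and 102 CPM in Wt Unstarved. In each genotype every starved library lay below every unstarved one, and the Gcn library numbered 1 was the highest of each Gcn group.

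Gclc fell by 0.55 ± 0.15 in Gcn Arg (adjusted p = 0.0156) and by 0.93 ± 0.15 in Gcn Leu (adjusted p = 0.000948) on the log2 scale, each against Gcn Unstarved. The arginine call was lost without Gcn Arg 2 (-0.43, adjusted p = 0.0645), Gcn Arg 3 (-0.50, adjusted p = 0.0706) or Gcn Unstarved 1 (-0.43, adjusted p = 0.0612), and with library size as the only scaling (-0.43, adjusted p = 0.0558). In Wt cells it fell by 0.46 ± 0.07 with arginine starvation (adjusted p = 5.83e-05) and by 0.57 ± 0.07 with leucine starvation (adjusted p = 1.63e-05). The differences between genotypes were -0.10 ± 0.18 for arginine (adjusted p = 0.853) and -0.37 ± 0.18 for leucine (adjusted p = 0.386), neither of them called. With the replicate number as a block within each genotype, the leucine difference of Gclc was called (-0.37, adjusted p = 0.00459). Between unstarved groups Gclc was lower in Gcn cells (log2 -0.42 ± 0.13, adjusted p = 0.0159), which did not pass without Wt Unstarved 2 (adjusted p = 0.0681), Gcn Unstarved 2 (0.0634) or Gcn Unstarved 3 (0.069).

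Gclm (ENSMUSG00000028124, chr3:122245557-122270732, plus strand) encodes the modifier subunit of the same ligase, which raises its catalytic efficiency. It stood at 88.0, 91.4 and 83.4 CPM in Gcn Arg, 108, 115 and 103 CPM in Gcn Leu, and 143, 147 and 131 CPM in Gcn Unstarved. It stood at 96.9, 100 and 100 CPM in Wt Arg, 114, 125 and 126 CPM in Wt Leu, and 154, 168 and 160 CPM in Wt Unstarved. In both genotypes the 3 groups were ordered without overlap, with the arginine-starved libraries lowest, the leucine-starved between and the unstarved highest. Its exons overlap those of Gm17494 and Gm6061, which had 58 and 89 counts over all libraries.

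Gclm fell by 0.67 ± 0.08 in Gcn Arg (adjusted p = 6.45e-05) and by 0.36 ± 0.08 in Gcn Leu (adjusted p = 0.00729) on the log2 scale. In Wt cells it fell by 0.70 ± 0.06 with arginine starvation (adjusted p = 1.44e-07) and by 0.40 ± 0.06 with leucine starvation (adjusted p = 9.37e-05). The genotypes' changes differed by 0.02 ± 0.10 for arginine (adjusted p = 0.956) and 0.03 ± 0.10 for leucine (adjusted p = 0.943). Leucine-starved cells had more Gclm than arginine-starved cells in the Wt genotype (log2 0.30 ± 0.06, adjusted p = 0.004). The same comparison in Gcn cells gave 0.31 ± 0.08 (adjusted p = 0.0358), which was lost on leaving out any 1 of the 6 libraries (adjusted p = 0.0518 to 0.166), with library size as the only scaling (0.0592) and without the 3 libraries numbered 1 (0.0787).

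In unstarved cells Gclm was lower in Gcn cells (log2 -0.20 ± 0.07, adjusted p = 0.0362). That small difference did not pass without Wt Unstarved 2 (adjusted p = 0.129), Wt Unstarved 3 (0.0764), Gcn Unstarved 1 (0.0593) or Gcn Unstarved 3 (0.146). It also did not pass with no filter on low counts (0.132) or with the 2 unstarved groups alone in the fit (0.0631).

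Gss (ENSMUSG00000027610, chr2:155563181-155592810, minus strand) encodes glutathione synthetase, which adds glycine in the second and last step. It averaged 27.9 ± 1.4, 27.1 ± 0.90 and 26.9 ± 1.9 CPM in Gcn Arg, Gcn Leu and Gcn Unstarved, and 25.7 ± 2.3, 27.0 ± 1.3 and 25.5 ± 0.89 CPM in Wt Arg, Wt Leu and Wt Unstarved. Neighbouring groups in this order of levels all overlapped. Its log2 fold changes with starvation lay between 0.01 and 0.08, and their adjusted p-values were 0.677 and 0.929 in Gcn cells and 0.909 and 0.526 in Wt cells, arginine before leucine. Over the alternative settings of these 4 comparisons the value stayed within -0.07 to 0.18. Exons of Gss overlap those of Acss2 on the opposite strand, a gene with 3667 counts over all libraries, and whether the counting used strand is not given here.

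Gsr (ENSMUSG00000031584, chr8:33652523-33698163, plus strand) encodes glutathione reductase, which returns oxidised glutathione to its reduced form with NADPH. It stood at 142, 150 and 135 CPM in Gcn Arg, 177, 171 and 153 CPM in Gcn Leu, and 202, 190 and 181 CPM in Gcn Unstarved. It stood at 156, 157 and 151 CPM in Wt Arg, 165, 181 and 171 CPM in Wt Leu, and 196, 211 and 210 CPM in Wt Unstarved. Starved libraries lay below unstarved ones in both genotypes, with the arginine-starved groups lowest.

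Gsr fell by 0.42 ± 0.08 on the log2 scale in Gcn Arg (adjusted p = 0.00232). In Gcn Leu its log2 fold change of -0.19 ± 0.08 was not called (adjusted p = 0.132), but it was with the replicate number as a block (adjusted p = 0.00719) and with all 6 groups in the fit (adjusted p = 0.0476). In Wt cells Gsr fell by 0.41 ± 0.06 with arginine starvation (adjusted p = 3.37e-05) and by 0.26 ± 0.06 with leucine starvation (adjusted p = 0.00331). The genotypes' changes differed by -0.01 ± 0.10 for arginine (adjusted p = 0.969) and by 0.06 ± 0.10 for leucine (adjusted p = 0.863), and the unstarved genotypes by -0.10 ± 0.07 (adjusted p = 0.292), none of them called. Leucine-starved against arginine-starved cells gave 0.23 ± 0.08 in Gcn cells (adjusted p = 0.118, or 0.0035 with the block and 0.0357 with all 6 groups) and 0.15 ± 0.06 in Wt cells (adjusted p = 0.117, or 0.0221 with the block).

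**Figure D2:**
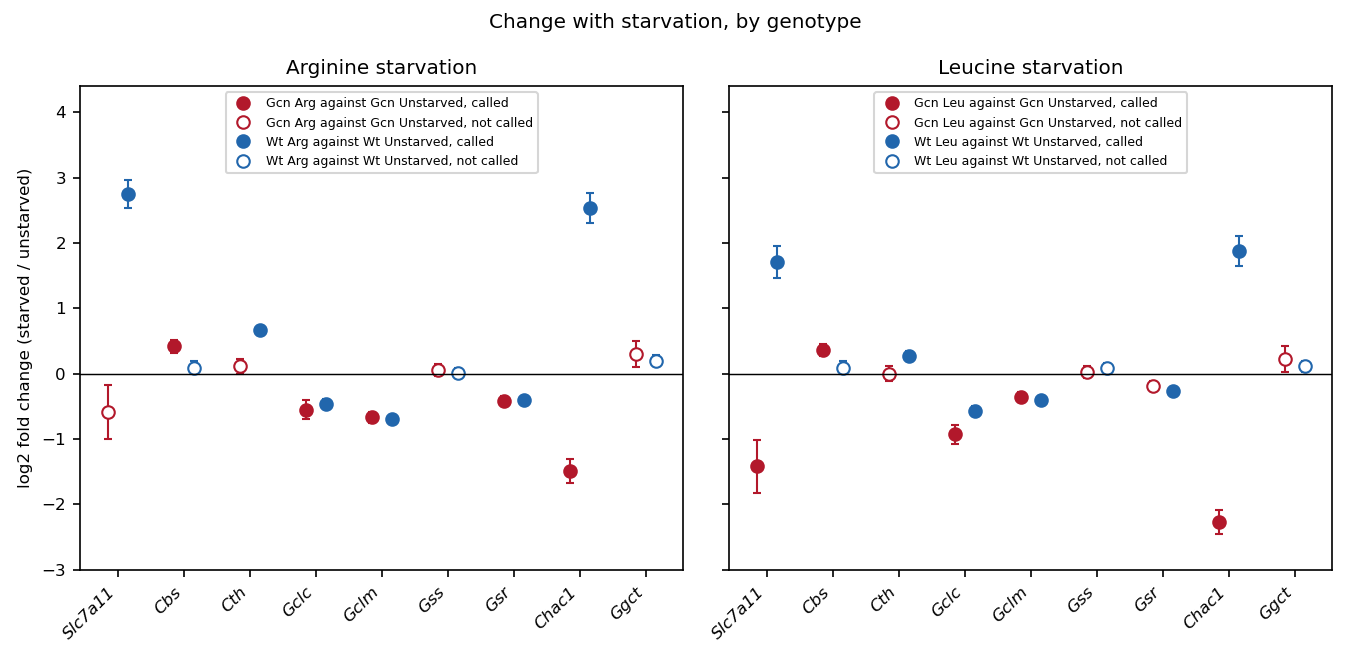
Log2 fold change of each gene in starved against unstarved cells, for arginine and for leucine, with Gcn cells in red left of Wt cells in blue, bars of 1 standard error, and filled points for called genes. Slc7a11 and Chac1 lie above 1.7 in Wt cells and below 0 in Gcn cells, whereas Gclc, Gclm and Gsr lie below 0 in both.

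Chac1 (ENSMUSG00000027313, chr2:119351229-119354381, plus strand) encodes a cytosolic γ-glutamylcyclotransferase that splits glutathione. It stood at 7.56, 8.68 and 8.55 CPM in Gcn Arg, 4.57, 3.81 and 5.89 CPM in Gcn Leu, and 28.6, 22.6 and 18.7 CPM in Gcn Unstarved. It stood at 158, 161 and 169 CPM in Wt Arg, 92.2, 108 and 108 CPM in Wt Leu, and 37.8, 17.7 and 28.2 CPM in Wt Unstarved. The unstarved groups overlapped, and starvation moved the genotypes to opposite sides of them, with no overlap between any starved group and its own unstarved one.

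In Gcn cells Chac1 fell 2.80-fold with arginine starvation (log2 -1.49 ± 0.18, adjusted p = 5.51e-05) and 4.82-fold with leucine starvation (log2 -2.27 ± 0.18, adjusted p = 6.73e-06). In Wt cells it rose 5.81-fold and 3.66-fold (log2 2.54 ± 0.23 and 1.87 ± 0.23, adjusted p = 8.74e-05 and 0.000767), arginine before leucine. All 4 calls held in every alternative setting, with the change between -1.62 and -1.25 in Gcn Arg, between -2.48 and -2.06 in Gcn Leu, between 2.29 and 2.83 in Wt Arg and between 1.62 and 2.17 in Wt Leu. The difference between the genotypes' changes was -4.03 ± 0.32 for arginine (adjusted p = 2.46e-06) and -4.15 ± 0.32 for leucine (adjusted p = 2.66e-06), larger in size than that of any other of the 9 genes.

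Leucine-starved cells had less Chac1 than arginine-starved cells within Gcn (log2 -0.78 ± 0.19, adjusted p = 0.0211), a call lost without Gcn Leu 1 (adjusted p = 0.0635), Gcn Leu 2 (0.0691), Gcn Arg 2 (0.0578) or Gcn Arg 3 (0.0682), and with all 6 groups in the fit (0.0588). Within Wt the value was -0.67 ± 0.22 and was not called (adjusted p = 0.106). Between unstarved cells, Chac1 averaged 23.3 ± 5.0 CPM in Gcn Unstarved and 27.9 ± 10 CPM in Wt Unstarved (log2 -0.27 ± 0.21, adjusted p = 0.376). The wide spread of the Wt group decided that value, which was -0.51 without Wt Unstarved 2 (adjusted p = 0.0203) and 0.02 without Wt Unstarved 1 (adjusted p = 0.964).

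Ggct (ENSMUSG00000002797, chr6:54982580-54992950, minus strand) encodes γ-glutamylcyclotransferase, which releases 5-oxoproline from γ-glutamyl amino acids and dipeptides. It stood at 18.6, 29.0 and 26.3 CPM in Gcn Arg, 18.3, 26.8 and 24.7 CPM in Gcn Leu, and 16.6, 19.7 and 24.1 CPM in Gcn Unstarved. It stood at 29.9, 34.5 and 28.4 CPM in Wt Arg, 29.3, 31.0 and 27.5 CPM in Wt Leu, and 28.3, 26.2 and 26.5 CPM in Wt Unstarved. Number 1 was the lowest library of each Gcn group, and the groups of each genotype overlapped, except that every Wt Arg library lay above every Wt Unstarved one.

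Ggct was not called with starvation, at 0.30 ± 0.20 in Gcn Arg (adjusted p = 0.298), 0.22 ± 0.20 in Gcn Leu (adjusted p = 0.487), 0.20 ± 0.08 in Wt Arg (adjusted p = 0.0725) and 0.11 ± 0.08 in Wt Leu (adjusted p = 0.339) on the log2 scale. With the replicate number as a block it was called higher in Gcn Arg (0.30, adjusted p = 0.00898), Gcn Leu (0.21, adjusted p = 0.0483) and Wt Arg (0.19, adjusted p = 0.0195). It was also called in Gcn Arg without the 3 libraries numbered 1 (0.36, adjusted p = 0.0392), and in Wt Arg without Wt Arg 3 (0.26, adjusted p = 0.0363) or with library size as the only scaling (0.23, adjusted p = 0.0368). In unstarved cells it was lower in Gcn (log2 -0.42 ± 0.16, adjusted p = 0.0431), and this did not pass on leaving out any 1 of the 6 libraries except Gcn Unstarved 3 (adjusted p = 0.0679 to 0.18).

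Counted over the 9 genes, 1 rose and 4 fell in Gcn Arg against Gcn Unstarved, where 28% of 16369 genes were called (14.3% higher and 13.7% lower), or 4583 genes, and 7602 with the replicate block. In Gcn Leu against Gcn Unstarved 1 rose and 4 fell, where 21.8% were called (11.7% higher and 10% lower), or 3561 genes, and 6651 with the block. The count of 5 was 3 without Gcn Leu 2 or without Gcn Unstarved 3, and 7 with the replicate block. In Wt Arg against Wt Unstarved 3 rose and 3 fell, where 40.9% of 16140 genes were called (20.9% higher and 20% lower). In Wt Leu against Wt Unstarved 3 rose and 3 fell, where 29.6% were called (15.5% higher and 14.1% lower). The median log2 fold change of the 9 was -0.42 in Gcn Arg, -0.19 in Gcn Leu and 0.09 in both Wt comparisons, beside a median over all genes between -0.01 and 0.01. So many genes moved in every comparison that counts of 5 or 6 among 9 set these genes little apart, and what they show lies in the sizes and the directions.

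The differences between genotypes were rarer across the transcriptome. The 9 genes were chosen with earlier results of these data known, so their share beside that of all genes is description only. For arginine 3 of the 9 were called (Slc7a11, Cth and Chac1), all with the lower change in Gcn cells, where 2.30% of 16924 genes were called (0.620% higher and 1.68% lower), or 390 genes, and 2505 with the replicate block. For leucine 2 were called (Slc7a11 and Chac1), also lower in Gcn cells, where 0.821% were called (0.154% higher and 0.668% lower). The replicate block called 4 for leucine, with Cth and Gclc besides. The other 6 genes were called in neither difference without the block, which does not show that their changes were equal.

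**Figure D3:**
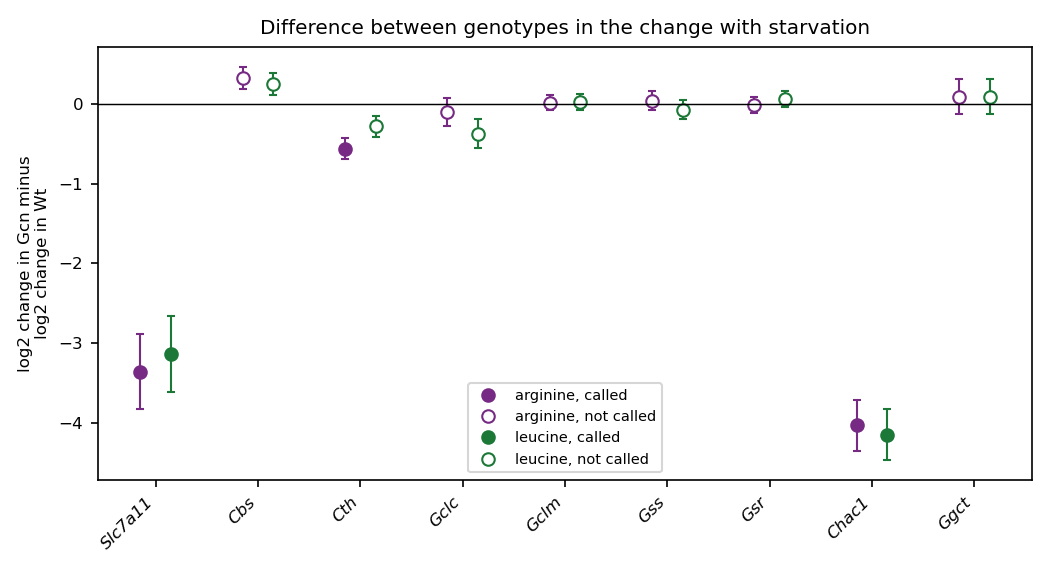
Difference between genotypes in the change with starvation (log2 change in Gcn cells minus log2 change in Wt cells) for each gene, with arginine in purple, leucine in green, bars of 1 standard error, and filled points for called differences. Chac1 and Slc7a11 lie between -4.15 and -3.14 for both amino acids, Cth at -0.56 for arginine, and the other genes within 0.37 of 0.

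Between the starved groups of 1 genotype, 2 of the 9 genes were called in Gcn Leu against Gcn Arg (Gclm higher and Chac1 lower), where 8.52% of genes were called (4.64% higher and 3.88% lower). That count ranged from 0 to 1 when any 1 library was left out and was 4 with the replicate block, which added Gclc (log2 -0.36, adjusted p = 0.00113) and Gsr. In Wt Leu against Wt Arg 3 were called (Gclm higher, Slc7a11 and Cth lower), where 10% were called (5.25% higher and 4.76% lower). Gclm was the 1 gene called higher after leucine than after arginine starvation in both genotypes, and the highest levels of Slc7a11, Cth and Chac1 were those of the Wt Arg libraries.

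In unstarved cells, 5 of the 9 were called, all lower in Gcn (Cth, Gclc, Ggct, Cbs and Gclm), where 32.8% of genes were called (16.6% higher and 16.2% lower). Leaving out any 1 of the 6 unstarved libraries left 1 to 3 of these calls, with Cth among them each time. Cth alone was left without Wt Unstarved 2, where Slc7a11 and Chac1 were called lower in Gcn instead, and Slc7a11 was also called without Gcn Unstarved 3. Other features differed between the same groups. Gm42418, which overlaps ribosomal RNA sequence, held 1.503% to 3.974% of counts in Gcn Unstarved and 0.224% to 1.208% in Wt Unstarved. The summed level of 6 fibroblast markers was 6.10 to 7.96 CPM in Gcn Unstarved and 14.9 to 19.0 CPM in Wt Unstarved, with 2 of 6 markers at 1 CPM or more in Gcn, 4 of 6 in Wt, and Lum at 0 in both. Their part in the differences between genotypes was not tested.

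The fibroblast markers lay within 5.22 to 8.11 CPM over all Gcn libraries and within 14.9 to 24.4 CPM over all Wt libraries. The summed level of 4 neural markers moved with starvation in Gcn cells, at 197 to 207 CPM in Gcn Arg, 229 to 254 CPM in Gcn Leu and 266 to 280 CPM in Gcn Unstarved. In Wt cells it was 187 to 220 CPM in Wt Arg, 202 to 249 CPM in Wt Leu and 208 to 219 CPM in Wt Unstarved. The part of these markers in the changes above was not tested. The 5 primitive endoderm markers summed to 8.12 to 20.1 CPM and overlapped between all groups.

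Per kilobase of merged exon, the order of the genes in their levels depended on the group. In Wt Arg, Chac1 stood highest at 99.5 CPM per kb, followed by Cth at 86.9 and Gsr at 56.2. In Gcn Leu, Gsr stood highest at 60.7 CPM per kb, Cth at 29.9, and Chac1 at 2.90, below Gss at 4.58. Slc7a11 was the lowest of the 9 in each group, at 0.0145 CPM per kb in Gcn Leu and 0.447 CPM per kb in Wt Arg. These levels compare libraries of poly(A) RNA and not protein or flux.

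The regulators named above moved differently from each other. Atf4 fell in Gcn Arg (log2 -0.58 ± 0.08, adjusted p = 0.000168) and Gcn Leu (-0.29 ± 0.08, adjusted p = 0.0192), and rose in Wt Arg (0.44 ± 0.09, adjusted p = 0.00187) and Wt Leu (0.61 ± 0.09, adjusted p = 0.000251). The mRNA of Atf4 averaged 272 ± 4.5, 330 ± 18 and 407 ± 26 CPM in Gcn Arg, Gcn Leu and Gcn Unstarved, and 626 ± 18, 706 ± 36 and 462 ± 78 CPM in Wt Arg, Wt Leu and Wt Unstarved. Wt Unstarved 1 was the highest of its group for Atf4 (529 CPM, against 377 and 481), as it was for Slc7a11 and Chac1. The differences between genotypes were -1.02 ± 0.13 (adjusted p = 4.99e-05) for arginine and -0.91 ± 0.13 (adjusted p = 0.000344) for leucine. Trib3, a pseudokinase induced in the same response, differed by -3.32 ± 0.22 (adjusted p = 5.88e-08) and -3.15 ± 0.22 (adjusted p = 1.19e-07). Ddit3, encoding CHOP, differed by -2.87 ± 0.24 and -2.61 ± 0.23, and Atf3 by -1.94 ± 0.29 and -1.83 ± 0.29, all called. Within Gcn cells, Trib3 fell in Gcn Arg (-1.77 ± 0.12) and Gcn Leu (-1.91 ± 0.12). Ddit3 fell in Gcn Arg (-0.81 ± 0.15) and was not called in Gcn Leu (0.21 ± 0.14). Atf3 was called in neither (0.26 ± 0.17 and -0.25 ± 0.17). Between unstarved groups, Ddit3 was higher in Gcn cells (0.87 ± 0.17) and Atf3 lower (-1.51 ± 0.21), both called, and Trib3 was not called (-0.11 ± 0.15).

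Nfe2l2, encoding NRF2, rose in Gcn Arg (log2 0.42 ± 0.10, adjusted p = 0.00702), Wt Arg (0.48 ± 0.07, adjusted p = 3.85e-05) and Wt Leu (0.27 ± 0.07, adjusted p = 0.00799), while Gclc and Gclm fell in the same groups. In Gcn Leu its value was 0.13 ± 0.10 (adjusted p = 0.413). Keap1, whose product marks NRF2 for degradation, fell in all 4 comparisons, by 0.39, 0.34, 0.79 and 0.60 on the log2 scale in Gcn Arg, Gcn Leu, Wt Arg and Wt Leu. Bach1, a repressor of NRF2 target genes, rose in Wt Arg (0.51 ± 0.09, adjusted p = 0.000197) and Wt Leu (0.31 ± 0.09, adjusted p = 0.0128), with -0.10 ± 0.16 and 0.00 ± 0.15 in Gcn Arg and Gcn Leu. Neither Nfe2l2 (-0.07 and -0.15), Keap1 (0.40 and 0.26) nor Bach1 (-0.61 and -0.32) passed the test of the difference between genotypes. These are mRNA levels, and NRF2 and ATF4 are both known to be controlled largely after transcription.

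Around the 9 genes, 92 further genes of the pathway were listed in 6 groups by function, of which 85 were tested within each genotype. In Gcn Arg 9 rose and 9 fell, in Gcn Leu 5 rose and 9 fell, in Wt Arg 11 rose and 21 fell, and in Wt Leu 11 rose and 18 fell. Over all genes tested, 28%, 21.8%, 40.9% and 29.6% were called in the same order, so the share called among the listed genes was below that over all genes in the first 3 comparisons and a little above it in Wt Leu, and nothing is read from these counts. The 3 differences called between genotypes for arginine and the 3 for leucine, of 86 tested, were all lower in Gcn cells. Over all genes, 2.30% were called for arginine (0.620% higher and 1.68% lower). For leucine 0.821% of all genes were called (0.154% higher and 0.668% lower), so lower was the commoner direction there too. The genes named below had the largest changes of their list among those called in Wt Arg or Wt Leu, or the largest called differences between genotypes. A change called in Gcn cells alone named no gene.

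Of 6 tested genes of cystine and cysteine transport, 2 rose and 2 fell in Gcn Arg, 1 rose in Gcn Leu, and 4 rose and 1 fell in each of Wt Arg and Wt Leu. The median log2 change was 0.07, -0.16, 0.59 and 0.50 in that order. Slc3a2, the heavy chain that pairs with xCT and with several other transporters, changed by 0.31 ± 0.09 in Gcn Arg and 0.03 ± 0.09 in Gcn Leu, and by 0.70 ± 0.07 in Wt Arg and 0.75 ± 0.07 in Wt Leu. Its difference between genotypes was called for leucine (-0.73 ± 0.11, adjusted p = 0.001) and not for arginine (-0.39 ± 0.11, adjusted p = 0.0712). Slc1a4, a transporter of neutral amino acids, differed by -1.66 ± 0.23 for arginine (adjusted p = 0.000492) and -1.72 ± 0.23 for leucine (adjusted p = 0.000515). Slc1a5, a glutamine transporter, differed by -0.86 ± 0.14 for arginine (adjusted p = 0.00086), and its difference of -0.56 ± 0.14 for leucine was not called (adjusted p = 0.0526). Ctns, which exports cystine from lysosomes, rose in every comparison, by 1.45 ± 0.10 in Gcn Arg, 0.79 ± 0.09 in Gcn Leu, 1.41 ± 0.08 in Wt Arg and 0.85 ± 0.08 in Wt Leu, with differences between genotypes of 0.03 ± 0.13 and -0.06 ± 0.13 that were not called.

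Of 13 tested genes of cysteine metabolism, 1 rose and 2 fell in Gcn Arg, 1 rose and 1 fell in Gcn Leu, 2 rose and 3 fell in Wt Arg, and 1 rose and 2 fell in Wt Leu. Cdo1, which oxidises cysteine, rose in all 4, by 1.21 ± 0.11, 0.91 ± 0.11, 0.85 ± 0.09 and 0.59 ± 0.09 in the same order. Mat2a, which makes S-adenosylmethionine, fell in all 4, by 1.61 ± 0.09, 1.04 ± 0.09, 1.28 ± 0.08 and 0.86 ± 0.08. Mtr, methionine synthase, rose in Wt Arg (0.37 ± 0.08, adjusted p = 0.00126) and was not called in the other 3. Of 11 tested genes of glutathione breakdown and recycling other than the 9, 1 rose in Gcn Arg by edgeR, and 0 by DESeq2. In Gcn Leu, Wt Arg and Wt Leu, edgeR, DESeq2 and limma-voom each called 0 of them, and 0 had an unadjusted p under 0.05. Their median log2 change was 0.13 in Gcn Arg, 0.01 in Gcn Leu, -0.02 in Wt Arg and -0.05 in Wt Leu, beside the changes of Chac1 given above.

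Of 27 genes of glutathione use and transport, 3 rose in Gcn Arg, 2 rose and 2 fell in Gcn Leu, 2 rose and 6 fell in Wt Arg, and 3 rose and 6 fell in Wt Leu. Slc25a40, a mitochondrial glutathione importer, rose in all 4, by 0.88 ± 0.10, 0.36 ± 0.10, 0.92 ± 0.09 and 0.56 ± 0.09. Glrx5, a mitochondrial glutaredoxin, fell in Wt Arg (-0.68 ± 0.07) and Wt Leu (-0.47 ± 0.07), with -0.30 ± 0.12 and -0.18 ± 0.12 in Gcn Arg and Gcn Leu, not called. Glrx, a cytosolic glutaredoxin, fell in Wt Arg (-0.63 ± 0.14, adjusted p = 0.00152) and was not called in the other 3.

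In the thioredoxin system, the other large thiol-reducing pathway, 2 of 14 rose and 4 fell in Gcn Arg, 1 rose and 3 fell in Gcn Leu, 1 rose and 8 fell in Wt Arg, and 1 rose and 7 fell in Wt Leu. Txnip, an inhibitor of thioredoxin, rose in all 4, by 1.70 ± 0.11, 1.72 ± 0.11, 1.67 ± 0.07 and 1.71 ± 0.07. Srxn1, sulfiredoxin, fell in all 4, by 1.27 ± 0.12, 0.84 ± 0.12, 1.21 ± 0.09 and 0.96 ± 0.09. Txnrd1, thioredoxin reductase, fell in all 4 as well, by 0.47 ± 0.08, 0.44 ± 0.08, 0.41 ± 0.05 and 0.41 ± 0.05. None of these 3 passed the test of the difference between genotypes.

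Of 14 genes of NADPH supply, 1 fell in Gcn Arg, 3 fell in Gcn Leu, 2 rose and 3 fell in Wt Arg, and 2 rose and 2 fell in Wt Leu. Both that rose in Wt cells belong to mitochondrial folate metabolism. Mthfd2 rose by 0.84 ± 0.08 in Wt Arg and 0.64 ± 0.08 in Wt Leu, and differed between genotypes by -1.01 ± 0.12 for arginine (adjusted p = 1.58e-05) and -0.90 ± 0.12 for leucine (adjusted p = 0.000104). Aldh1l2 rose by 1.60 ± 0.15 and 0.97 ± 0.16, and its differences of -0.96 ± 0.29 and -1.14 ± 0.29 were not called (adjusted p = 0.0822 and 0.0657). Me1, malic enzyme, fell in Gcn Leu (-0.54 ± 0.12), Wt Arg (-0.22 ± 0.08) and Wt Leu (-0.35 ± 0.08), and in Gcn Arg stood at -0.32 ± 0.12 without being called.

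**Figure D4:**
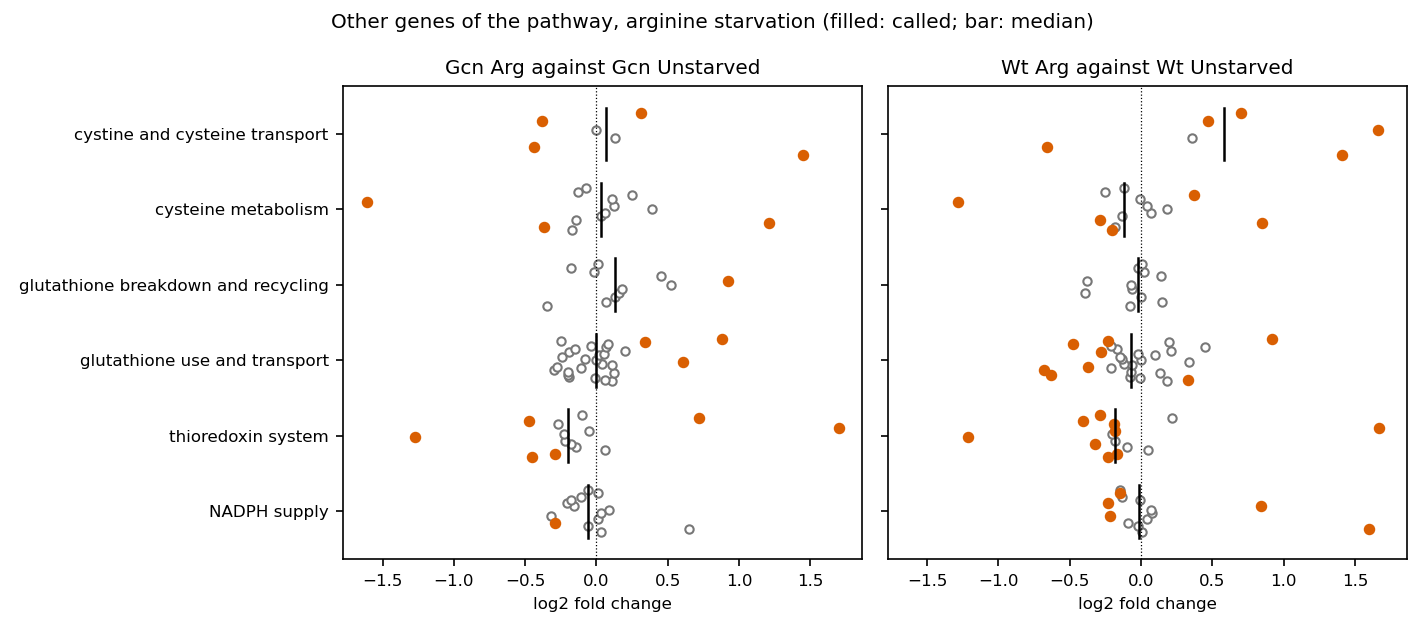
Log2 fold change with arginine starvation of the tested genes of the 6 pathway lists, with Gcn cells left of Wt cells, filled points for called genes, open points for the rest and a bar at each list's median. The medians lie within 0.20 of 0 in every list except cystine and cysteine transport in Wt cells, at 0.59.

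As a description over the 18 libraries, which share groups and so are not independent, the levels of Slc7a11 and Chac1 ran together (Pearson r = 0.964 of log2 CPM), as did those of Gclm and Gsr (r = 0.970). Cth ran with Slc7a11 (r = 0.928) and with Chac1 (r = 0.889). Among 13548 genes with a mean of at least 1 CPM, those most like Slc7a11 were Vldlr (r = 0.982), Chac1, Adm2 (0.963), Stc2 (0.963) and Atf3 (0.962). Those most like Chac1 were Trib3 (0.984), Slc6a9 (0.983), Adm2 (0.979), Slc7a1 (0.976) and Stc2 (0.972). Those most like Cth were Lexm (0.979), Slc7a7 (0.970), Thbs1 (0.967), Rasd2 (0.967) and Plcxd1 (0.965). All were called lower in Gcn Unstarved than in Wt Unstarved, as Cth was, at log2 -1.67, -0.57, -3.15, -0.78 and -1.66 in that order. With starvation, all were called higher in Wt Arg, Plcxd1 alone in Wt Leu, and none in Gcn Arg or Gcn Leu. Those most like Gclm were Ppan (0.985), Traf4 (0.981), Sbk1 (0.979), Mob3a (0.978) and Srxn1 (0.971), all called lower in both starved groups of both genotypes.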

How the data were processed

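The authors deposited raw counts per Ensembl gene, as 1 table per genotype with 9 libraries each. The submitters' processing notes name STAR 2.7.4a, HTSeq and DESeq2 and the build GRCm38. Which annotation release was counted, and with which strand setting, is not given in the sources used here. The normalized tables of the authors, a signal of counts divided by size factors, were not used here.

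Identifiers were matched to symbols in GENCODE vM21 (55144 of 55471 matched). The test was that of edgeR 4.0.16 in R 4.3.3, beside limma 3.58.1 as an alternative, with filterByExpr, TMM scaling, robust quasi-likelihood F test, and Benjamini-Hochberg adjustment over all genes tested. Comparisons within a genotype used its 9 libraries, and the unstarved genotypes and the differences between genotypes used all 18. Standard errors were derived as |log2 fold change| over the root of the F statistic. Each adjusted p refers to this test unless its sentence names DESeq2 1.42.0 or another alternative setting, such as a library left out or the block. The edgeR models were run on simulated counts with the same dispersion for every gene and no shared deviation of same-numbered libraries. That run therefore says nothing of such deviation. Library totals of 14777012 to 38814785 counts set the precision, which is poor for Slc7a11 in Gcn cells.

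The genes, lists and markers, and the rule for naming genes of each list, were chosen with earlier results of these data known. That rule names the 3 largest changes called in Wt Arg or Wt Leu and the 2 largest called differences between genotypes. Same-numbered libraries deviated together in each pair of Gcn groups (r = 0.179 to 0.486, 9 pairs). Unlike numbers gave -0.384 to 0.219 in Gcn cells, so the ranges overlapped there. Same-numbered libraries also deviated together in Wt Leu and Wt Arg (0.168 to 0.286). They barely did in Wt Arg and Wt Unstarved (0.100 to 0.203) and in Wt Leu and Wt Unstarved (0.0496 to 0.198). In Wt cells unlike numbers gave -0.237 to -0.0023. The replicate number was taken to pair libraries within a genotype, which comes from the data and not from the labels. This pairing entered only the alternative with the replicate number as a block. The main tests had no covariate beside the group, so their adjusted p-values are unpaired. Alternatives were DESeq2, limma-voom, library size as the only scaling, no filter on low counts, other sets of groups in the fit, the replicate number as a block, each library left out, and the 3 Gcn libraries numbered 1 left out.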

Additional observations from a re-analysis of the deposited data

Results flagged for a closer look

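The change of Chac1, which cleaves glutathione, with arginine starvation differed between the genotypes by the test of the difference itself, at -4.03 on the log2 scale (change in Gcn cells minus change in Wt cells). With leucine starvation its difference was -4.15, and the Gcn and Wt values lay on opposite sides of 0 in both starvations. Slc7a11, the cystine transporter, differed in the same direction, at -3.36 for arginine and -3.14 for leucine. Its value in Gcn Arg was not called (-0.59, adjusted p = 0.315), and its called fall in Gcn Leu was lost without single libraries. An opposite change in Gcn cells is thus not established for Slc7a11. Cth, of transsulfuration, differed at -0.56 for arginine, and that difference did not pass on leaving out 7 of the 12 libraries in turn.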

How the results depend on the processing

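Among 1130 values of single genes under alternatives, none that was called changed sign. Leaving out 1 library kept 548 on the same side of the threshold, ended 42 calls and added 4, and the other settings kept 514, ended 8 and added 14. Among those kept, 46 uncalled values changed sign, the largest at a size of 0.09. Of the 9 genes, 2 were called in Gcn Leu against Gcn Arg, with 1 by library size only, 4 with the replicate block, 1 without the 3 Gcn libraries numbered 1, and 0 to 1 leaving out 1 library. Of the 2 called in the leucine difference between genotypes, DESeq2 kept 1, since it gave no adjusted p for Slc7a11, and the block gave 4, adding Cth (-0.28, adjusted p = 0.0241) and Gclc (-0.37, adjusted p = 0.00459). Leaving out 1 library gave 3 to 5 calls in Gcn Leu against Gcn Unstarved (5 with all) and 2 to 3 in the unstarved genotypes (5 with all). Genes called over the transcriptome moved by over 1.5 times with the block in Gcn Arg (4583, block 7602), Gcn Leu (3561, block 6651), Wt Leu against Wt Arg (1615, block 3328, all 6 groups 916), Gcn Leu against Gcn Arg (1395, block 4362, all 6 groups 2344), the arginine difference (390, block 2505, DESeq2 777, no filter 777) and the leucine difference (139, block 1878, DESeq2 391, no filter 353). Leaving out 1 library gave 871 genes in Wt Leu against Wt Arg without Wt Arg 2 (987 to 1023 without Wt Arg 3, Wt Leu 2 or Wt Leu 3), 2171 in Gcn Leu against Gcn Unstarved without Gcn Unstarved 2, 710 and 711 in Gcn Leu against Gcn Arg without Gcn Leu 2 and without Gcn Arg 3, 187 to 525 in the arginine difference and 74 to 257 in the leucine difference, the lowest of both without Gcn Unstarved 2. The cause was not tested. Library size only moved the median of all genes in Gcn Arg to 0.11, from which changes there are then to be read, with 3449 higher and 1397 lower calls beside 2339 and 2244 with TMM. The split was 2609 and 1066 beside 1920 and 1641 in Gcn Leu, 610 and 781 beside 760 and 635 in Gcn Leu against Gcn Arg, 298 and 162 beside 105 and 285 in the arginine difference, and 80 and 77 beside 26 and 113 in the leucine difference. For leucine starvation of Wt cells, same-numbered libraries had r = 0.0496 to 0.198, each above -0.0023, the highest for unlike numbers. The block called 6555 genes there in place of 4772. For the unstarved genotypes (-0.158 to 0.0291), samples share only a number, and the block called 5904 genes in place of 5548. In both comparisons the block changed no call among the 9. Depth limits Slc7a11 in Gcn cells, at 4 to 21 counts a library.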
